A study of Mus musculus with 2 samples.

Results

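The Prss and Tmprss genes encode serine proteases of the trypsin fold, and they were chosen by name: every protein-coding gene of the table whose symbol starts with Prss or Tmprss followed by a digit. This gave 56 genes of 53801 in the table and of 22058 protein-coding genes. Of the 56, 31 reached 1 TPM (a share of all transcripts, corrected for gene length) in at least 1 library, and these are described in detail. The members just inside this limit were Prss53, at 1.18 TPM in labelled-knockout cells and 1.03 TPM in wild-type cells, and Tmprss9, at 1.06 TPM in labelled-knockout cells and 0.811 TPM in wild-type cells. Of the 31, 5 reached it in labelled-knockout cells alone and 3 in wild-type cells alone. The highest member outside it was Tmprss11d, at 0.540 TPM in labelled-knockout cells and 0.607 TPM in wild-type cells.

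The RNA was taken from sorted mouse spermatocytes, which are germ cells in meiosis. One library was labelled as Smc1b knockout overexpressing SMC1alpha and the other as SMC1beta wild type, with 1 library per genotype. SMC1beta is the SMC1 subunit of meiotic cohesin, the ring that holds sister chromatids together, and SMC1alpha is its counterpart in body cells generally. The sources used here do not give strain, age, number of animals or the construct behind the overexpression, and both titles carry "4N" without explanation. Loss of SMC1beta and excess of SMC1alpha are labelled for the same library and cannot be told apart. The protocols cover total testis as well as sorted cells, and the purity of the sort is not stated in them. Without replicates the spread between animals is unknown and no test was possible, so "higher" and "lower" compare 1 library with 1 other. Each log2 ratio divides (TPM + 1) of the labelled knockout by (TPM + 1) of wild type. Such ratios understate differences of low genes, and a gene was counted from 2-fold, a log2 ratio of 1 or more in size. Fold differences given for single genes and for sums divide TPM without the added 1. They are therefore larger than the log2 ratios beside them, most of all for low genes.

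Trypsin-fold serine proteases cut proteins with a catalytic triad of histidine, aspartate and serine, and most are made as inactive precursors that are cut once to become active. Many Prss genes are read mainly in the testis, where their products sit in the acrosome, the secretory vesicle of the sperm head, or on the germ cell surface, and several are needed in mice for sperm to reach or bind the egg. Tmprss genes encode relatives that are fixed in the cell membrane by their amino-terminal end, most of them on epithelia outside the testis.

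The library labels were only in part borne out by the 2 genes they name. Smc1b had 62.9 TPM in labelled-knockout cells and 76.1 TPM in wild-type cells, 82.7% of the wild-type level, and a sum over all transcripts cannot show whether a deleted part is missing. The library is therefore called the labelled knockout. Smc1a had 28.8 TPM in labelled-knockout cells and 0.510 TPM in wild-type cells. The spermatocyte marker Sycp3, a protein of the chromosome axis, was abundant in both, at 602.5 TPM in labelled-knockout cells and 264.5 TPM in wild-type cells. The libraries also differed in markers of other stages and cells. The 17 spermatid markers summed to 585.7 TPM in labelled-knockout cells and 3988 TPM in wild-type cells, with 17 of 17 at least 2-fold lower, and the 12 late prophase markers to 3086 TPM in labelled-knockout cells and 6408 TPM in wild-type cells, with 8 lower. The 10 early prophase markers summed to 1516 TPM in labelled-knockout cells and 665.6 TPM in wild-type cells, with 8 of 10 at least 2-fold higher, and the 12 spermatogonia markers to 93.7 TPM in labelled-knockout cells and 13.2 TPM in wild-type cells, with 10 higher. The 14 Sertoli cell markers summed to 474.4 TPM in labelled-knockout cells and 77.6 TPM in wild-type cells (11 higher), the 8 Leydig cell markers to 1642 TPM in labelled-knockout cells and 63.2 TPM in wild-type cells (8 higher), and the 10 macrophage markers to 34.1 TPM in labelled-knockout cells and 5.08 TPM in wild-type cells (7 higher). Sums of the myoid and epithelial markers were instead lower, but they rested on few genes. The 6 myoid cell markers summed to 10.03 TPM in labelled-knockout cells and 23.7 TPM in wild-type cells (2 higher and 1, Actg2, lower). Actg2 alone had 2.78 TPM in labelled-knockout cells and 19.7 TPM in wild-type cells. The median log2 ratio of the 5 myoid markers at 1 TPM or more was 0.22. The 8 epithelial markers summed to 16.99 TPM in labelled-knockout cells and 23.9 TPM in wild-type cells (0 higher and 1, Krt8, lower). Only 2 of them, Epcam and Krt8, reached 1 TPM, and none of the others was lower in labelled-knockout cells. Rhox13 of the spermatogonia list and C1qa and Fcer1g of the macrophage list were listed at 0 in wild-type cells. Lcn8, Lcn9 and Crisp1 of the epithelial list were also at 0 there, and Lcn9 in labelled-knockout cells too. The part of these differences in the results below was not tested, and in bulk RNA fewer cells of a type and less RNA per cell cannot be told apart.

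Of the 56 members, 13 were at least 2-fold lower in labelled-knockout cells and 3 at least 2-fold higher. Of the 31 members at 1 TPM or more, these were 41.9% and 9.68%. Among the 15000 protein-coding genes at 1 TPM or more, 16.5% were at least 2-fold lower and 18.7% at least 2-fold higher. The 13 lower members were 23.2% of all 56, against 11.2% of all 22058 protein-coding genes with no limit on level, and the 3 higher members were 5.36% of all 56, against 12.7%. The levels of all members summed to 280.9 TPM in labelled-knockout cells and 656.9 TPM in wild-type cells, which is 2.34-fold lower. Protein-coding genes as a whole held 49.0% of all TPM in labelled-knockout cells and 62.6% in wild-type cells. With protein-coding TPM rescaled to the same total in both libraries, the members summed to 573.7 TPM in labelled-knockout cells and 1050 TPM in wild-type cells. Over the 31 that reached 1 TPM, log2 ratios had a median of -0.69, against -0.05 for protein-coding genes. The 3 rescalings tried moved the protein-coding median to between 0.23 and 0.36 and the members' median to between -0.48 and -0.29. The limit of 1 TPM was applied again after rescaling, and 32 members passed it under 2 of the 3. The members thus lay between -0.71 and -0.64 relative to protein-coding genes under all 4 scales. After each of the 3 rescalings Prss47, Prss55 and Prss56 came within 2-fold, which left 10 members lower, and Prss36 passed 2-fold under 2 of them, which gave 4 higher members in place of 3. These counts are out of the 31 or 32 members that passed the limit. Among protein-coding genes that passed it, 9.79% to 11.0% were then lower and 23.9% to 28.2% higher. With a pseudocount of 5 TPM, 8 members were lower and 1, Prss50, was higher, against 10.5% and 6.87% of protein-coding genes.

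**Figure D1:**
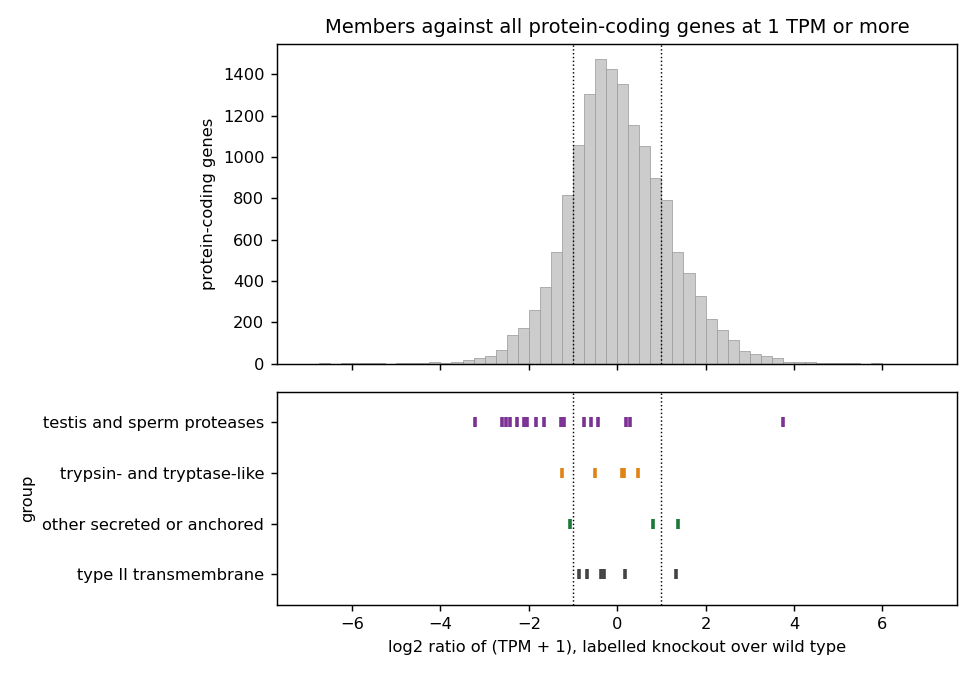
The upper panel counts the 15000 protein-coding genes at 1 TPM or more in a library by their log2 ratio of (TPM + 1), labelled knockout over wild type, and the lower panel marks the 31 members in 4 groups on the same axis, with dotted lines at 2-fold. Of the testis and sperm proteases, 11 lie at or beyond 2-fold lower and 1, Prss50, at a log2 ratio of 3.76.

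The clearest contrast lay within a single run of neighbouring genes. Prss42, Prss44, Prss43, Prss45, Prss46 and Prss50 follow each other in this order on the plus strand of chromosome 9 (mm10, 110798166 to 110864629), within 66.5 kb and with gaps of 1.44 to 10.2 kb. All 6 were detected in both libraries, yet the first was at least 2-fold lower in labelled-knockout cells and the last at least 2-fold higher. The 250 bases before the RefSeq start of 4 of the 6 (GRCm38.p6, plus strand) are shown because these neighbours differ in direction. Capitals mark CG dinucleotides, the sites of DNA methylation. The windows are chr9:110797935-110798184 for Prss42, chr9:110834338-110834587 for Prss45, chr9:110844256-110844505 for Prss46 and chr9:110857714-110857963 for Prss50.
Prss42: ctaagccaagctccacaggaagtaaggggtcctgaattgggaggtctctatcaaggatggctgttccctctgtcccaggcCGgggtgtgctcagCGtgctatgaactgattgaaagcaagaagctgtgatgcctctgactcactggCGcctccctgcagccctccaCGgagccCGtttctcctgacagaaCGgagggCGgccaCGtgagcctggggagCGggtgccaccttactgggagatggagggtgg
Prss45: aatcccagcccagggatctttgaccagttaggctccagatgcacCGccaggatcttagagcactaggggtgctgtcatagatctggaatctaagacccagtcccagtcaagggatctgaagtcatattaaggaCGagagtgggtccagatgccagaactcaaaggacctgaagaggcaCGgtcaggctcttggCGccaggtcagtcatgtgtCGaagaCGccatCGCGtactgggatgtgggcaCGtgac
Prss46: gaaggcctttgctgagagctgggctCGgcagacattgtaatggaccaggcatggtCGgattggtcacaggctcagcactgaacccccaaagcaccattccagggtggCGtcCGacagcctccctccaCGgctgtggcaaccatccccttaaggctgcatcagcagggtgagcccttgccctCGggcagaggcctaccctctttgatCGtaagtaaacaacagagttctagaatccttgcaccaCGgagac
Prss50: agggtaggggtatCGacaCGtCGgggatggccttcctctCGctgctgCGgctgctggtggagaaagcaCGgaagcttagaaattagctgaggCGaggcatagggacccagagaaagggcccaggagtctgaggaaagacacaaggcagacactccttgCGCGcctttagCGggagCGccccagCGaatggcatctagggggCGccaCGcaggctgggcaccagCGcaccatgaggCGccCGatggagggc
The window of Prss50 held 17 CG dinucleotides, against 9 for Prss42, 9 for Prss45 and 8 for Prss46. The median of 27025 such windows, 1 per gene, was 6, and 76.4% of them held fewer than that of Prss50. Its G+C content was 63.6%, against 60.4% for Prss42, 54.8% for Prss45 and 58.0% for Prss46. Prss50 had the most CG dinucleotides of the 23 members at 1 TPM or more that had a window, which ranged from 0 to 17.

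Prss50, also called TSP50, is a testis protease that carries a threonine in place of the catalytic serine, as described for the human protein. It had 19.2 TPM in labelled-knockout cells and 0.490 TPM in wild-type cells. Its log2 ratio of 3.76 lay above 99.8% of protein-coding genes at 1 TPM or more. Without the added 1 the values differ 39.2-fold, a fold that is uncertain because the wild-type value lies under 1 TPM. Prss50 was the fifth most abundant member in labelled-knockout cells and ranked 32 in wild-type cells. Its nearest neighbour in the run, Prss46, lies 1.44 kb upstream and went the other way, at 12.3 TPM in labelled-knockout cells and 21.6 TPM in wild-type cells (log2 ratio -0.76). The level of Prss50 over that of Prss46, a ratio that no scaling of a library can change, was 1.55 in labelled-knockout cells and 0.0227 in wild-type cells. On its other side, Tmie on the opposite strand, 1.08 kb away, had 0.459 TPM in labelled-knockout cells and 1.40 TPM in wild-type cells. The early prophase, spermatogonia, Sertoli, Leydig and macrophage markers given above were also higher in sum, each by 2.28-fold or more, and their part in the Prss50 value was not tested.

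Prss42 and Prss43, known as Tessp-2 and Tessp-3, have been linked in mice to germ cell survival and to progress through meiosis. Prss42 had 18.1 TPM in labelled-knockout cells and 82.2 TPM in wild-type cells (4.53-fold lower, log2 ratio -2.12). Prss43 had 12.3 TPM in labelled-knockout cells and 41.2 TPM in wild-type cells (3.34-fold lower, log2 ratio -1.66). Prss44 lies between them and differed less, at 26.7 TPM in labelled-knockout cells and 40.7 TPM in wild-type cells (log2 ratio -0.59). Prss45 was slightly higher, at 46.0 TPM in labelled-knockout cells and 37.5 TPM in wild-type cells (log2 ratio 0.29), which made it the most abundant member of all 56 in labelled-knockout cells, whereas it ranked 6 in wild-type cells. The level of Prss45 over that of Prss42 was 2.54 in labelled-knockout cells and 0.457 in wild-type cells. Prss42 gave 13.5% of the summed level of the run in labelled-knockout cells and 36.7% in wild-type cells, and Prss45 gave 34.2% in labelled-knockout cells and 16.8% in wild-type cells. None of Prss44, Prss45, Prss46 and Prss50 shared a stretch of 31 bases with another gene's transcripts. Prss42 shared 0.648% of its 31-base stretches and Prss43 2.13%, with Gm39465 and Ubash3a as the genes sharing most.

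**Figure D2:**
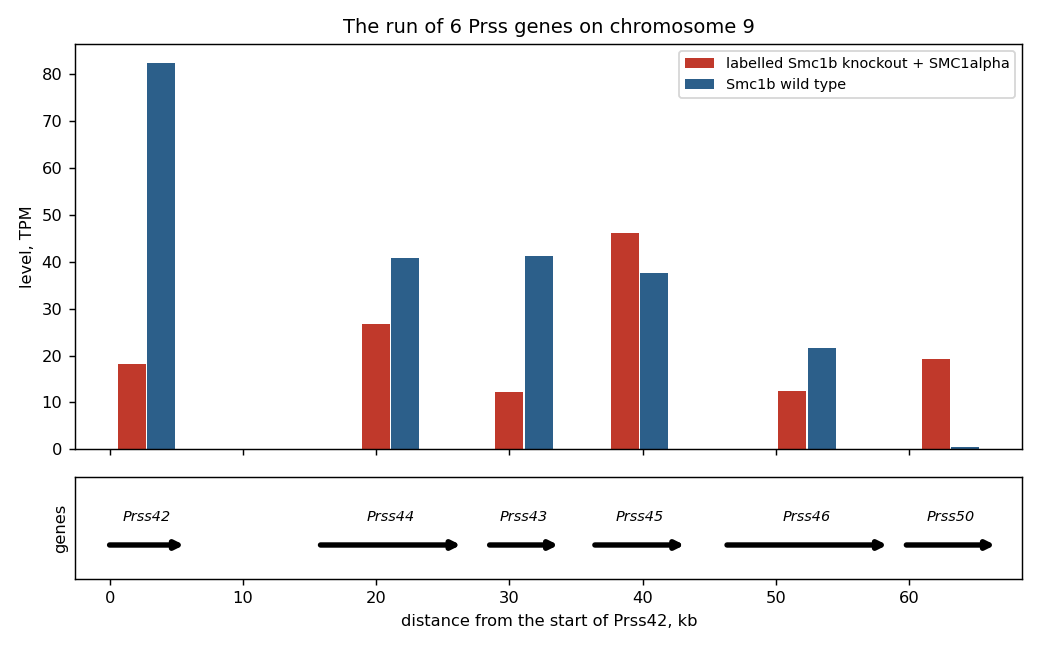
Bars give the level in TPM of the 6 genes in labelled-knockout cells (left bar, red) and wild type (right bar, blue), 1 library each, and arrows give each gene's extent and direction by distance from the start of Prss42 in kb. Prss42 has 18.1 TPM in labelled-knockout cells and 82.2 TPM in wild-type cells, while Prss50 at the far end has 19.2 TPM in labelled-knockout cells and 0.490 TPM in wild-type cells.

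A set of 8 short motifs was searched in the 250-base windows on both strands. The TATA box TATAAA was in 0 of the 23 windows of members at 1 TPM or more, against 13.0% of all windows, and the full cAMP response element TGACGTCA was in 0 of 23, against 1.62%. Its half-site TGACG, which lies inside the full site, was in 4 of 23, against 17.9%. The MYB core AACNG was in 19 of 23, against 74.1%. In the run it occurred 4 times for Prss42 and once each for Prss45 and Prss46, and it was not among the letters of the Prss50 window. The letters CNCCTCAG, described in mice as bound by STRA8 and its partner at entry into meiosis, were in 3 of 23 windows (Prss38, Prss47 and Prss50), against 6.39% of all. The GC box GGGCGG was in 3 of 23 windows, against 32.9%, the E-box CACGTG in 4 of 23, against 6.05%, and the RFX half-site GTTGCC in 3 of 23, against 10.5%. A match says only that the letters are present. For Tmprss9, Prss54, Prss47 and Prss33 the RefSeq start lay 7968, 733, 364 and 289 bases inside the gene as deposited. The windows of these genes therefore lie within the deposited gene and not before it.

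Most members linked to testis and sperm were lower. Of 17 members grouped as testis and sperm proteases, the chromosome 9 run included, 17 were at 1 TPM or more, 11 were at least 2-fold lower, 1 was at least 2-fold higher and 5 stayed within 2-fold. Of protein-coding genes at 1 TPM or more, 16.5% were lower and 18.7% higher. Their median log2 ratio was -1.66, against -0.05 for protein-coding genes, and their levels summed to 230.8 TPM in labelled-knockout cells and 590.7 TPM in wild-type cells. This list was put together with earlier results of these data known. The spermatid markers, all lower as well, summed to 585.7 TPM in labelled-knockout cells and 3988 TPM in wild-type cells, and their part in this count was not tested.

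Prss39 and Prss40, known as TESP1 and TESP2, are proteases of the mouse acrosome that lie 62.5 kb from end to end on chromosome 1. Prss39 was the most abundant member in wild-type cells and had 26.7 TPM in labelled-knockout cells and 112.6 TPM in wild-type cells (4.22-fold lower, log2 ratio -2.04). Prss40 had 5.90 TPM in labelled-knockout cells and 32.2 TPM in wild-type cells (5.46-fold lower, log2 ratio -2.27). The level of Prss39 over that of Prss40 was 4.52 in labelled-knockout cells and 3.50 in wild-type cells, closer to each other than the Prss45 to Prss42 and Prss50 to Prss46 ratios were. The pair shares 29 stretches of 31 bases, 2.18% of those of Prss39 and 1.36% of those of Prss40.

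Prss21, known as testisin, is anchored by a lipid on the sperm surface and contributes to sperm maturation in mice. It had 15.9 TPM in labelled-knockout cells and 102.4 TPM in wild-type cells (6.45-fold lower, log2 ratio -2.62). Prss41, known as Tessp-1, lies on the same stretch of chromosome 17 and had 7.27 TPM in labelled-knockout cells and 6.17 TPM in wild-type cells (log2 ratio 0.21). The level of Prss41 over that of Prss21 was 0.458 in labelled-knockout cells and 0.0603 in wild-type cells. The stretch holds 7 members within 212.6 kb, of which 3 reached 1 TPM. The third of these, Prss33, had 1.55 TPM in labelled-knockout cells and 0.842 TPM in wild-type cells. Prss32, Prss30 and Prss27 stayed under 1 TPM in both libraries, and Prss22 was listed at 0 in both.

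Prss54, a protease-like protein linked in mice to the shape of the acrosome, had the lowest log2 ratio of all 31. It had 2.17 TPM in labelled-knockout cells and 28.6 TPM in wild-type cells (13.2-fold lower, log2 ratio -3.22), and 0.347% of protein-coding genes at 1 TPM or more lay below it. Ccdc113, a gene of cilia and the sperm tail that lies 0.179 kb away on the opposite strand, was also lower, at 35.5 TPM in labelled-knockout cells and 113.2 TPM in wild-type cells.

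Prss37, Prss55 and Tmprss12 are each needed in male mice for sperm to pass into the oviduct and for normal ADAM3, a sperm membrane protein of that pathway. These 3 did not share a single degree of difference. Prss37 had 1.26 TPM in labelled-knockout cells and 11.8 TPM in wild-type cells (9.41-fold lower, log2 ratio -2.51). Prss55 had 6.93 TPM in labelled-knockout cells and 17.4 TPM in wild-type cells (2.51-fold lower, log2 ratio -1.21). Tmprss12 had 27.1 TPM in labelled-knockout cells and 36.8 TPM in wild-type cells (log2 ratio -0.43), and it was the second most abundant member in labelled-knockout cells. The level of Tmprss12 over that of Prss37 was 21.5 in labelled-knockout cells and 3.11 in wild-type cells.

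Prss55, Prss51 and Prss52 form a run of 38.3 kb on chromosome 14, and all 3 were at least 2-fold lower as deposited. Among protein-coding genes at 1 TPM or more, 16.5% were lower. Prss51 and Prss52 passed the limit of 1 TPM through wild-type cells alone, where they were higher. Prss52 had 0.103 TPM in labelled-knockout cells and 4.95 TPM in wild-type cells (log2 ratio -2.43). Prss51 was listed at 0 in labelled-knockout cells and had 1.43 TPM in wild-type cells (log2 ratio -1.28). With a pseudocount of 5 TPM all 3 came within 2-fold, at log2 ratios of -0.96 for Prss52, -0.36 for Prss51 and -0.91 for Prss55, and Prss55 did so under each rescaling too. Prss55 and Prss51 overlap on opposite strands over 3.93 kb. The libraries were strand-specific, but whether the quantification used strand is not given in the sources used here. Prss58, on chromosome 6, had 2.81 TPM in labelled-knockout cells and 12.6 TPM in wild-type cells (4.49-fold lower, log2 ratio -1.84).

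**Figure D3:**
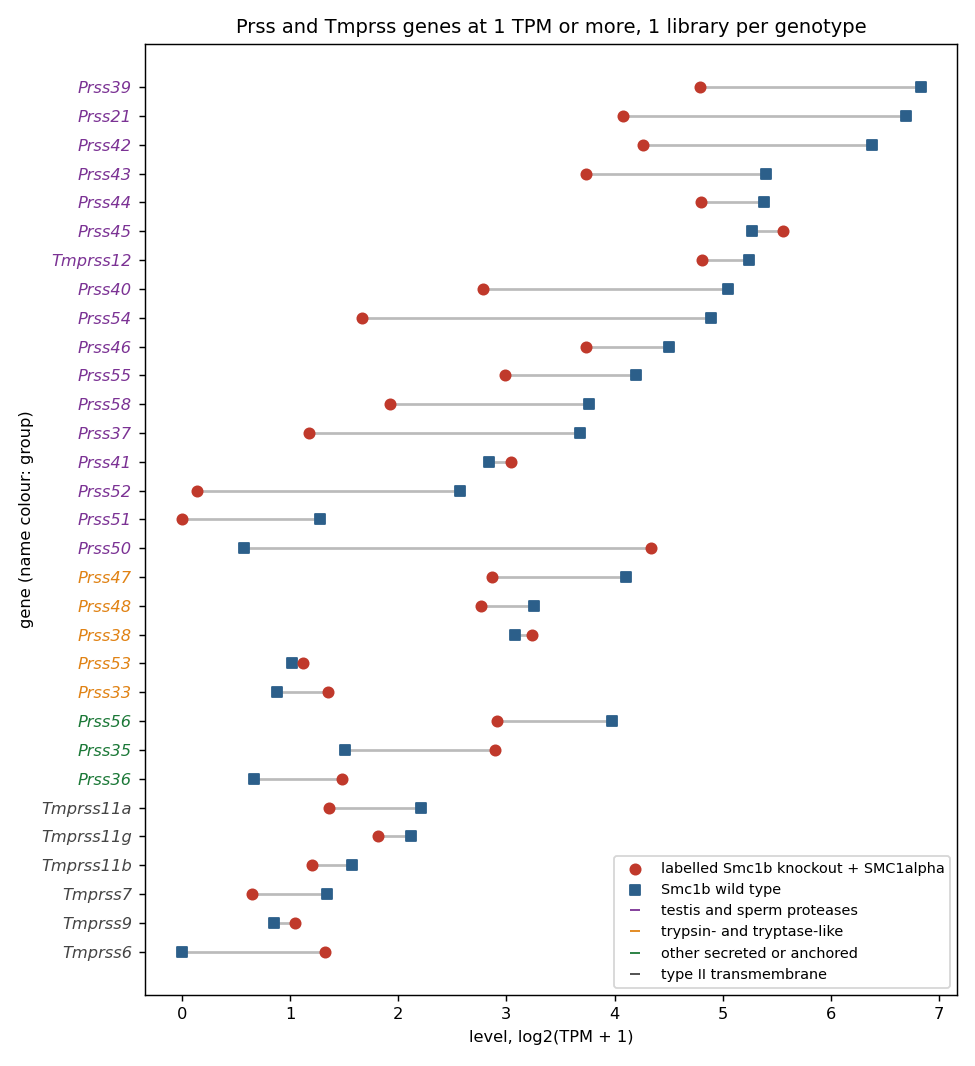
Points give the level of the 31 members in labelled-knockout cells (red circles) and wild type (blue squares) as log2(TPM + 1), 1 library each, with gene names coloured by group and ordered by wild-type level within a group. Of the 17 testis and sperm proteases at the top, Prss50, Prss45 and Prss41 have the red circle to the right of the blue square.

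Members grouped here as trypsin- or tryptase-like were mostly listed at 0 or under 1 TPM. The group is loose, and Prss47, Prss48, Prss53 and Prss57 in it do not carry such a name. Of 16, 5 reached 1 TPM, 1 was at least 2-fold lower and 0 at least 2-fold higher. Of protein-coding genes at that level, 16.5% were lower and 18.7% higher, so the 1 lower member is near that share. The pancreatic trypsin genes Prss1, Prss2 and Prss3, the uterine proteases Prss28 and Prss29, and the mast cell protease Prss34 were listed at 0 in both libraries. Prss38 had 8.40 TPM in labelled-knockout cells and 7.47 TPM in wild-type cells (log2 ratio 0.15), and Prss48 had 5.78 TPM in labelled-knockout cells and 8.54 TPM in wild-type cells (log2 ratio -0.49). Prss47 was the member counted as lower, at 6.28 TPM in labelled-knockout cells and 16.2 TPM in wild-type cells (log2 ratio -1.24). Prss53 shares 75.3% of its 31-base stretches with Gm21974, which overlaps it on the same strand and was listed at 0 in both libraries, so its value is uncertain.

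The other secreted or anchored members went both ways. Prss35, a protease-like protein described in the mouse ovary, had 6.41 TPM in labelled-knockout cells and 1.85 TPM in wild-type cells (3.47-fold higher, log2 ratio 1.38). Summed levels of the Leydig, spermatogonia, macrophage and Sertoli cell markers were each 6.12-fold or more higher in the same cells, and their part in the Prss35 value was not tested. Prss35 shares 5.47% of its 31-base stretches with other genes' transcripts, with 1500011B03Rik as the gene sharing most. Prss56, known for its role in eye growth, had 6.54 TPM in labelled-knockout cells and 14.8 TPM in wild-type cells (log2 ratio -1.07). Prss36, which carries several protease domains in tandem, had 1.80 TPM in labelled-knockout cells and 0.593 TPM in wild-type cells (log2 ratio 0.81). Prss8 (prostasin), Prss12 (neurotrypsin), Prss16 (a thymus protease) and Prss23 stayed under 1 TPM in both libraries, between 0.104 and 0.333 TPM in labelled-knockout cells and between 0.0782 and 0.508 TPM in wild-type cells.

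The membrane-fixed Tmprss genes other than Tmprss12 were low in both libraries. Of 16, 6 reached 1 TPM, and none exceeded 4 TPM. Tmprss11a, Tmprss11g and Tmprss11b, which belong to a run of 7 airway-type protease genes within 514.3 kb on chromosome 5, were the most abundant in wild-type cells. Tmprss11a had 1.56 TPM in labelled-knockout cells and 3.63 TPM in wild-type cells (log2 ratio -0.85). Tmprss11g had 2.51 TPM in labelled-knockout cells and 3.34 TPM in wild-type cells (log2 ratio -0.31), and Tmprss11b had 1.30 TPM in labelled-knockout cells and 1.99 TPM in wild-type cells (log2 ratio -0.38). All 7 genes of the run together summed to 6.30 TPM in labelled-knockout cells and 9.96 TPM in wild-type cells. Tmprss6, the liver protease that restrains hepcidin, had 1.502 TPM in labelled-knockout cells and was listed at 0 in wild-type cells (log2 ratio 1.32). Tmprss7 had 0.572 TPM in labelled-knockout cells and 1.54 TPM in wild-type cells (log2 ratio -0.69). Tmprss2, known for cutting viral surface proteins, had 0.184 TPM in labelled-knockout cells and 0.357 TPM in wild-type cells, and Tmprss4 and Tmprss11c were listed at 0 in both. Across the family, 9 members were listed at 0 in both libraries. The other 16 under 1 TPM, among them Prss57, Tmprss3, Tmprss5, Tmprss13 and Tmprss15, had their higher value between 0.101 and 0.607 TPM.

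**Figure D4:**
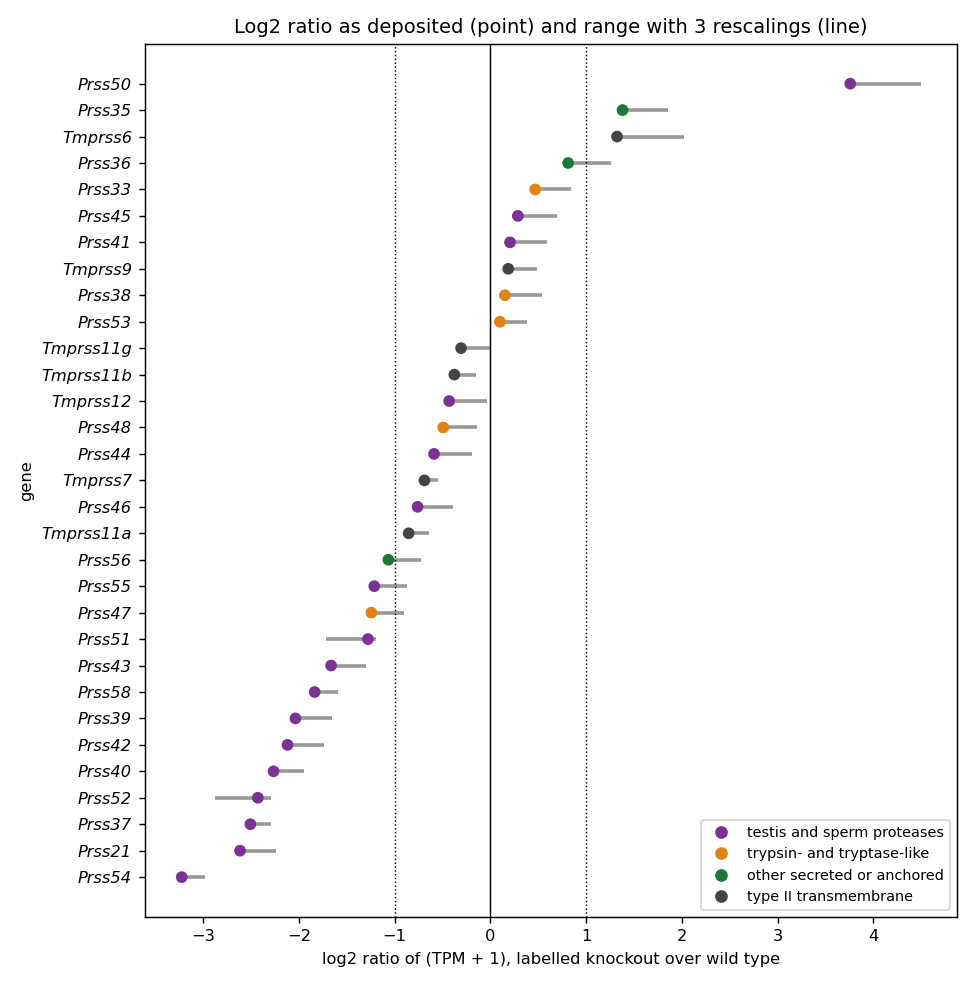
Points give the log2 ratio of (TPM + 1), labelled knockout over wild type, of the 31 members as deposited, coloured by group, and grey lines span that value and those after 3 rescalings, with dotted lines at 2-fold. Prss50 at 3.76 and Prss54 at -3.22 mark the ends, and no line crosses 0. The rescalings raise labelled-knockout values relative to wild type, so the lines of higher members could not cross it.

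Coding exon numbers overlapped between some of the groups. Of the 17 testis and sperm proteases, 13 had 5 coding exons in their longest reading frame (range 5 to 7), with 237 to 439 codons. The 16 membrane-fixed members had 9 to 28 coding exons and 389 to 1099 codons. The 16 members grouped as trypsin- or tryptase-like had 5 to 11 coding exons, 10 of them with 5. The 7 other secreted or anchored members had 1 to 15. None of the 56 members lies on a sex chromosome. Chromosome 17 carries 11 members and chromosome 9 carries 10, and the 4 most abundant members gave 45.0% of the summed level in labelled-knockout cells and 51.5% in wild-type cells.

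Genes of sperm proteins and of enzymes listed with them, and other serine proteases, differed in both directions. The 17 listed genes were fertilins, their chaperones, lipid-anchored partners, and enzymes or other proteins grouped with them. Of these, 16 reached 1 TPM, 10 were at least 2-fold lower and 3 at least 2-fold higher, with a median log2 ratio of -1.24. Among protein-coding genes at 1 TPM or more, 16.5% were lower and 18.7% higher. Adam3 had 139.5 TPM in labelled-knockout cells and 568.0 TPM in wild-type cells, and Pdilt, a chaperone of the testis, had 2.26 TPM in labelled-knockout cells and 16.9 TPM in wild-type cells. Tex101, a lipid-anchored germ cell protein, was higher, at 345.8 TPM in labelled-knockout cells and 130.1 TPM in wild-type cells. The other genes at least 2-fold higher, Gpaa1 (log2 ratio 1.37) and Tpst2 (log2 ratio 1.34), are neither fertilins nor chaperones. Of 25 other serine proteases, 12 reached 1 TPM, 3 were at least 2-fold higher and 1 lower. These small counts are near the 18.7% and 16.5% of protein-coding genes. Acr, the acrosomal protease acrosin, was the lower gene, at 59.8 TPM in labelled-knockout cells and 149.6 TPM in wild-type cells (log2 ratio -1.31). The higher genes were Htra1 (log2 ratio 2.35), Klk1 (log2 ratio 2.09) and Htra3 (log2 ratio 1.92).

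Inhibitors of serine proteases had a median on the other side. Of 29 listed, 18 reached 1 TPM, 7 were at least 2-fold higher and 1 lower, with a median log2 ratio of 0.63, beside 18.7% of protein-coding genes higher and 16.5% lower. Their summed level went the other way, at 445.6 TPM in labelled-knockout cells and 700.5 TPM in wild-type cells (1.57-fold lower), of which Spink2 and Serpinb6a held the most. Spink2, an acrosomal inhibitor needed for sperm formation in mice, was the lower gene, at 140.7 TPM in labelled-knockout cells and 347.4 TPM in wild-type cells (log2 ratio -1.30). Serpina5, the protein C inhibitor, had 14.3 TPM in labelled-knockout cells and 1.48 TPM in wild-type cells (log2 ratio 2.63). Serpina3n (log2 ratio 2.02), Serpinf1 (log2 ratio 1.84) and Serping1 (log2 ratio 1.81) were also higher. The early prophase, spermatogonia, Sertoli, Leydig and macrophage markers were higher in sum too, and their part in these values was not tested. Spint2, a membrane inhibitor of Tmprss enzymes, was level, at 85.7 TPM in labelled-knockout cells and 93.0 TPM in wild-type cells (log2 ratio -0.12).

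**Figure D5:**
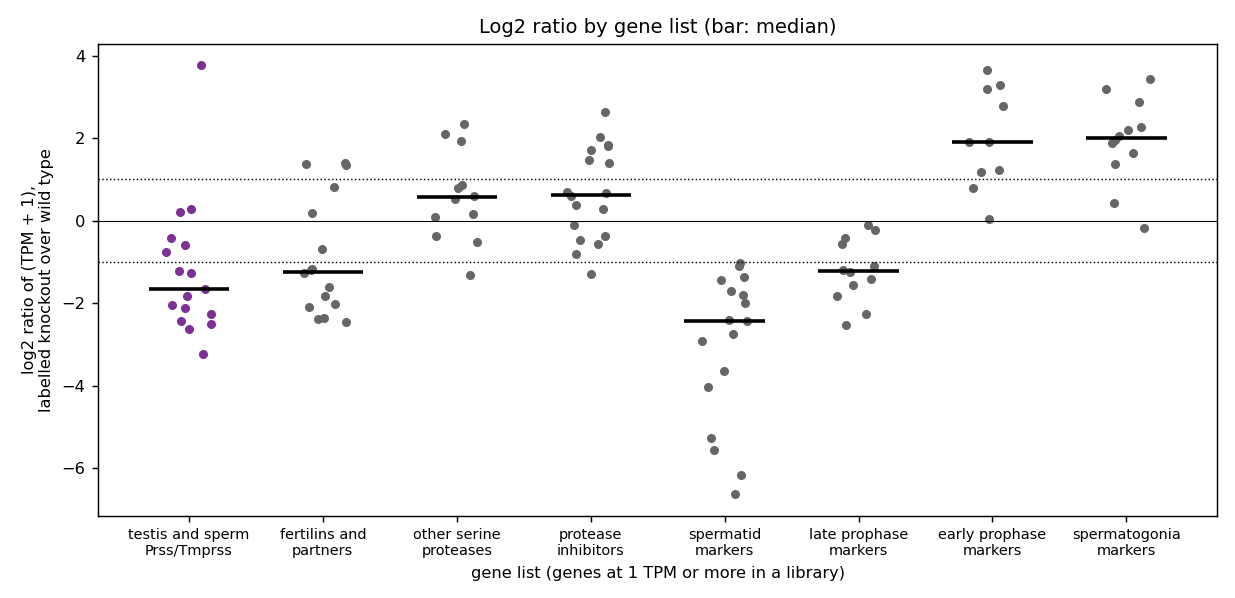
Points give the log2 ratio of (TPM + 1), labelled knockout over wild type, of genes at 1 TPM or more in 8 lists, bars give each list's median, and dotted lines mark 2-fold. The testis and sperm proteases (median -1.66) and the fertilins and partners (median -1.24) lie on the side of the spermatid (median -2.42) and late prophase markers (median -1.22), and the inhibitors (median 0.63) lie on the other.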

How the data were processed

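RNA was measured in sorted mouse spermatocytes, in 1 library labelled Smc1b knockout overexpressing SMC1alpha and 1 labelled wild type. Per the labels' protocols, ribosomal RNA was depleted and strand-specific libraries were sequenced single-end. The deposited table holds TPM, which the authors computed per gene over all RNA classes, and the submitters' processing notes name kallisto 0.43.1, TopHat, GSNAP, bcl2fastq 2.19.1 and the build mm10 without role or order. TPM keeps no read counts, so the depth and counting error behind each value are unknown. As shares of a fixed total, values fall when other RNAs take more of it. Per the file headers, the deposited G+C content is in percent and the gene length in bases. Both describe genes and were not used.

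Samples were grouped by genotype label. Log2 ratios used a pseudocount of 1 TPM, and counts used 2-fold. No test was run. Members, lists, motifs and the grouping were chosen with earlier results of these data known. The naming rule covered every member at 1 TPM or more, and up to 4 genes per direction of each other list. Where a symbol occurred more than once, lists took the entry whose mean TPM was higher. Of the 56 members, 56 were in GENCODE M21 of GRCm38, 48 with the same start and end. Transcript stretches of 31 bases were compared over all GENCODE M21 transcripts, same strand. Promoter windows came from RefSeq (GRCm38.p6), matched by symbol, with the first start listed per gene, and 23 of the 31 members at 1 TPM or more had a window. The ratio and the counting were tested on simulated data. These planted 4-fold changes in genes at 10 TPM or more in wild-type cells. They therefore do not show how 2-fold counts of lower genes behave. Other settings tried were a pseudocount of 0.1 or 5 TPM, no filter, a filter set at 5 TPM, counts at 4-fold, and 3 rescalings of the libraries: by a trimmed mean of ratios (30% off each end), by totals that omit mitochondrial and the 20 most abundant genes, or by protein-coding totals. Python 3.11.15, NumPy 2.4.6, pandas 2.3.3, SciPy 1.17.1 and Matplotlib 3.10.9 were used.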

Additional observations from a re-analysis of the deposited data

How the results depend on the processing

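Of the 31 members at 1 TPM or more, 0 changed direction under the 3 rescalings. Each of these raised labelled-knockout values relative to wild type, so the 10 members with a positive log2 ratio could not turn. Of the 21 with a negative one, Tmprss11g came closest to 0, at -0.00374 without mitochondrial and the most abundant genes. The pseudocounts and filters cannot turn a sign. Of the 13 at least 2-fold lower, 5 came within 2-fold under at least 1 setting, as did 2 of the 3 higher, while 3 others went past it. With a pseudocount of 5 TPM, 8 members were at least 2-fold lower and 1 higher, against 10.5% and 6.87% of protein-coding genes. At 4-fold these were 7 and 1, against 3.28% and 4.68%. Prss50 was the higher gene in both. The other counts stayed within 1.5 times. The median log2 ratio, -0.69 as reported, was -0.80 and -0.38 with pseudocounts of 0.1 and 5 TPM and -1.14 with a filter of 5 TPM. It was -0.48, -0.29 and -0.34 after rescaling by the trimmed mean, without mitochondrial and the most abundant genes, and over protein-coding genes alone. With no filter it was 0 over all 56, of which 25 lie under 1 TPM in both libraries. No paired analysis was possible because each genotype had 1 library. The depth behind each value is unknown, and values near 1 TPM are the least certain.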

Other observations

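Genes next to the members went in the same direction in some places and differed in others. Cfc1, which overlaps Prss40 over 0.346 kb on the opposite strand, was listed at 0 in labelled-knockout cells and had 1.18 TPM in wild-type cells (log2 ratio -1.13). Msra, the nearest expressed gene beside the lower chromosome 14 run, had 6.42 TPM in labelled-knockout cells and 4.83 TPM in wild-type cells (log2 ratio 0.35). Sh3d19, which overlaps Prss48 over 8.68 kb on the opposite strand, had 5.06 TPM in labelled-knockout cells and 1.73 TPM in wild-type cells (log2 ratio 1.15), while Prss48 had a log2 ratio of -0.49. Prss23os, the antisense partner of Prss23, had 0.150 TPM in labelled-knockout cells and 1.46 TPM in wild-type cells (log2 ratio -1.10), above Prss23 itself in wild-type cells, which had 0.332 TPM in labelled-knockout cells and 0.451 TPM in wild-type cells.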
